A study of Homo sapiens with 5 samples.

Results

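Knockdown of AURKA was set against inhibition of its kinase, using the 2 arrays of GFP-SAS cells given the siRNAs siAURKA-1 and siAURKA-2 and the 1 array of cells given the inhibitor MLN8237. These are 3 of the 5 arrays in the study. GFP-SAS is a human tongue squamous cell carcinoma line carrying green fluorescent protein. Both siRNAs were used at 10 nM and MLN8237, also called alisertib, at 100 nM, and all cells were harvested at 24 h. The other 2 arrays hold cells given a non-targeting siRNA (siNT) or DMSO alone, and they serve here as the background of each value. A gene was counted when both knockdown arrays lay at least 2-fold from the MLN8237 array in the same direction, and 32 of 18239 measured genes met this, 19 higher and 13 lower with knockdown. The rule itself sets the direction of these genes, so their differences are a description.

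Aurora kinase A is a serine/threonine kinase that matures centrosomes and builds the bipolar mitotic spindle, and it is activated on the spindle by TPX2 and in the cytoplasm by BORA. An siRNA removes the transcript and, with time, the protein with all its functions. Alisertib occupies the ATP pocket and blocks catalysis, while the protein itself is not removed. Binding of its partners was not measured here. Cells that lose Aurora A activity are delayed in mitosis, and in squamous carcinoma lines the kinase is often abundant.

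Each treatment was read on a single array, so no difference below has a replicate check, no test was run and no p-value is given. The siRNAs are different reagents against the same transcript and were not averaged. Both differences use the same MLN8237 array, so a reading particular to that array appears in both at once. Knockdown cells were also transfected while MLN8237 cells were not, and siNT minus MLN8237 is therefore given beside DMSO minus MLN8237. The deposited values are log2 signals that had been centred on the median array of each probe set. They order arrays within a gene but not genes by abundance, so the squamous identity of the line could not be checked from its markers. Over all genes, the SD of the difference from MLN8237 was 0.31 for siAURKA-1, 0.25 for siAURKA-2, 0.18 for siNT and 0.13 for DMSO.

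The targeted transcript separated the treatments most. AURKA read 0.15 with DMSO, 0.00 with siNT, 0.64 with MLN8237, -3.36 with siAURKA-1 and -2.64 with siAURKA-2. The inhibitor array was thus the highest of the 5 and both knockdown arrays lay far below the rest. Relative to MLN8237 the log2 difference was -4.00 with siAURKA-1, a signal 16.0-fold lower, or 6.25% of that on the inhibitor array. With siAURKA-2 it was -3.28, 9.70-fold lower or 10.3%. Each knockdown array lay further from MLN8237 than from siNT or DMSO. A single probe set reads this gene.

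Partners of the kinase differed far less. Of 15 genes for Aurora kinases, activators, spindle partners and the chromosomal passenger complex, AURKA alone was at least 1.5-fold lower on both knockdown arrays and 0 were higher. The list median was -0.46 with siAURKA-1 and -0.11 with siAURKA-2, beside 0.01 for both over all genes, and -0.04 with siNT and -0.07 with DMSO. At 1.5-fold on both arrays, 0.543% of all genes were lower and 0.603% higher. BORA, the cytoplasmic activator of Aurora A, was highest on the MLN8237 array at 0.53, against 0.00 with DMSO, 0.00 with siNT, 0.03 for siAURKA-1 and -0.11 for siAURKA-2. CDCA8, which encodes borealin of the passenger complex, had the same shape, at 0.44 with MLN8237 and between -0.13 and 0.02 on the other arrays. For both genes the inhibitor array stood apart, and the knockdown arrays lay near the controls.

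AURKB, the kinase of the passenger complex, differed from MLN8237 by -0.92 (siAURKA-1) and -0.36 (siAURKA-2). BIRC5, or survivin, gave -0.75 and -0.24 (10 of 12 probe sets in both directions). TPX2, the spindle activator of Aurora A, gave -0.56 and -0.11, and KIF11, the motor that pushes spindle poles apart, gave -0.46 and -0.11. AJUBA, a LIM protein that binds Aurora A, was lower with both at -0.70 and -0.51. For AURKB, BIRC5, TPX2 and KIF11 the siAURKA-2 array lay less far from MLN8237 than the siAURKA-1 array did. PLK1, the mitotic kinase downstream, was close to level at -0.05 and -0.12, with 2 of 3 probe sets in these directions. INCENP, the scaffold of the passenger complex, gave -0.21 and -0.07, and the spindle protein TACC3 -0.25 and -0.04; 1 of 2 and 5 of 6 of their probe sets shared both directions. CKAP5, a microtubule polymerase, gave -0.40 and 0.10, while CEP192 of the centrosome (-0.03 and 0.03), the germ-cell kinase AURKC (0.05 and 0.01) and the scaffold NEDD9 (0.06 and 0.29) were near MLN8237 or above it, and each had a probe set off these directions.

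At 2-fold, siAURKA-1 differed from MLN8237 in 126 higher genes (0.691% of all) and 194 lower genes (1.06%). For siAURKA-2 the counts were 70 (0.384%) and 98 (0.537%). The genes past 2-fold on both arrays were 19 higher (0.104%) and 13 lower (0.0713%), and 6 more (0.0329%) passed it in opposite directions. The controls were set against MLN8237 in the same way. The siNT array gave 24 higher (0.132%) and 16 lower genes (0.0877%), and the DMSO array 2 (0.0110%) and 10 (0.0548%). Both controls lay at least 2-fold from MLN8237 in the same direction for 1 gene (0.00548%), ANXA10, an annexin gene that read 0.00 with DMSO, 1.32 with siNT and -1.18 with MLN8237. It was not among the 32, since siAURKA-2 lay 0.65 above MLN8237. At 1.5-fold both controls were higher for 11 genes (0.0603%) and lower for 14 (0.0768%), and the siRNAs lay in opposite directions for 58 (0.318%). With no minimum size, 6382 genes (35.0%) were higher and 3584 (19.7%) lower on both knockdown arrays, a split that became 6034 and 6035 when each difference was centred on its own median over genes, an adjustment chosen after seeing the data.

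**Figure D1:**
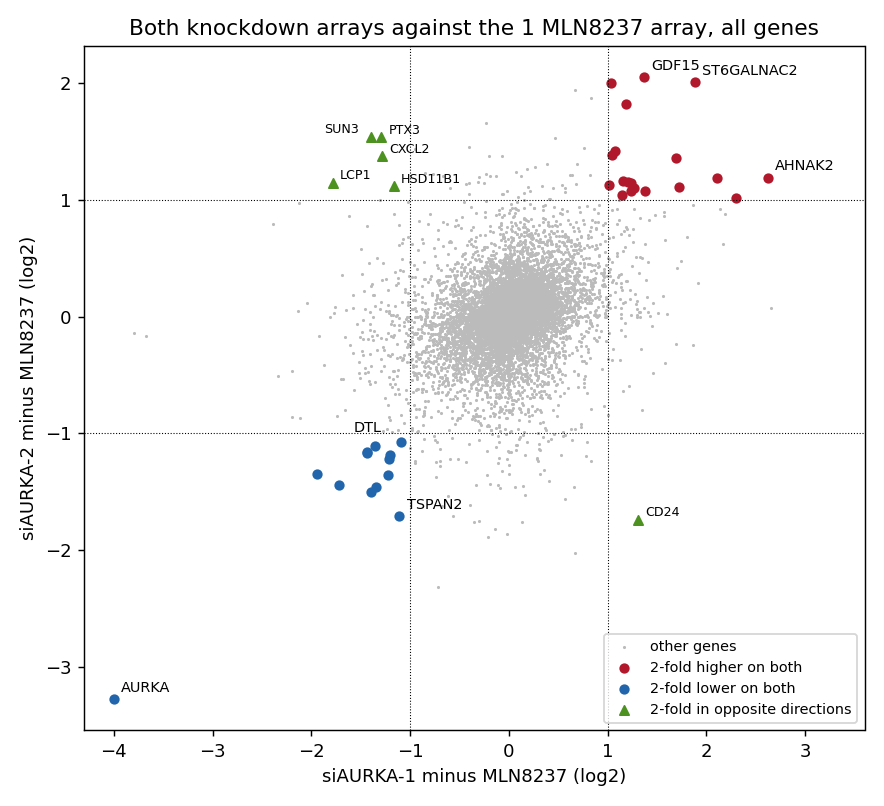
Each point is a gene, with siAURKA-1 minus MLN8237 on the horizontal axis and siAURKA-2 minus MLN8237 on the vertical axis, both log2, from 1 array per group, and dotted lines mark 2-fold. AURKA lies alone at -4.00 and -3.28, 19 genes fill the upper right, 13 including AURKA the lower left, and 6 lie in the opposite corners; both axes share the MLN8237 array.

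The place of the controls divides the 32 genes. In 20 of them, 10 higher and 10 lower, siNT and DMSO both lay nearer to MLN8237 than to the nearer knockdown array. In 4 genes, all higher, siNT lay with the knockdown arrays and DMSO with MLN8237. In 6 genes, 5 higher and 1 lower, both controls lay nearer to the nearer knockdown array than to MLN8237. For the lower gene, NEXN, this held narrowly. Its controls lay at -0.73 from MLN8237, and siAURKA-1 lay at -0.67 and siAURKA-2 at -0.77 from the controls. In the remaining 2, both lower, DMSO lay with knockdown and siNT with MLN8237. Among the 110 genes higher at 1.5-fold, these classes held 46, 45, 15 and 4 genes, and among the 99 lower they held 74, 10, 7 and 8.

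**Figure D2:**
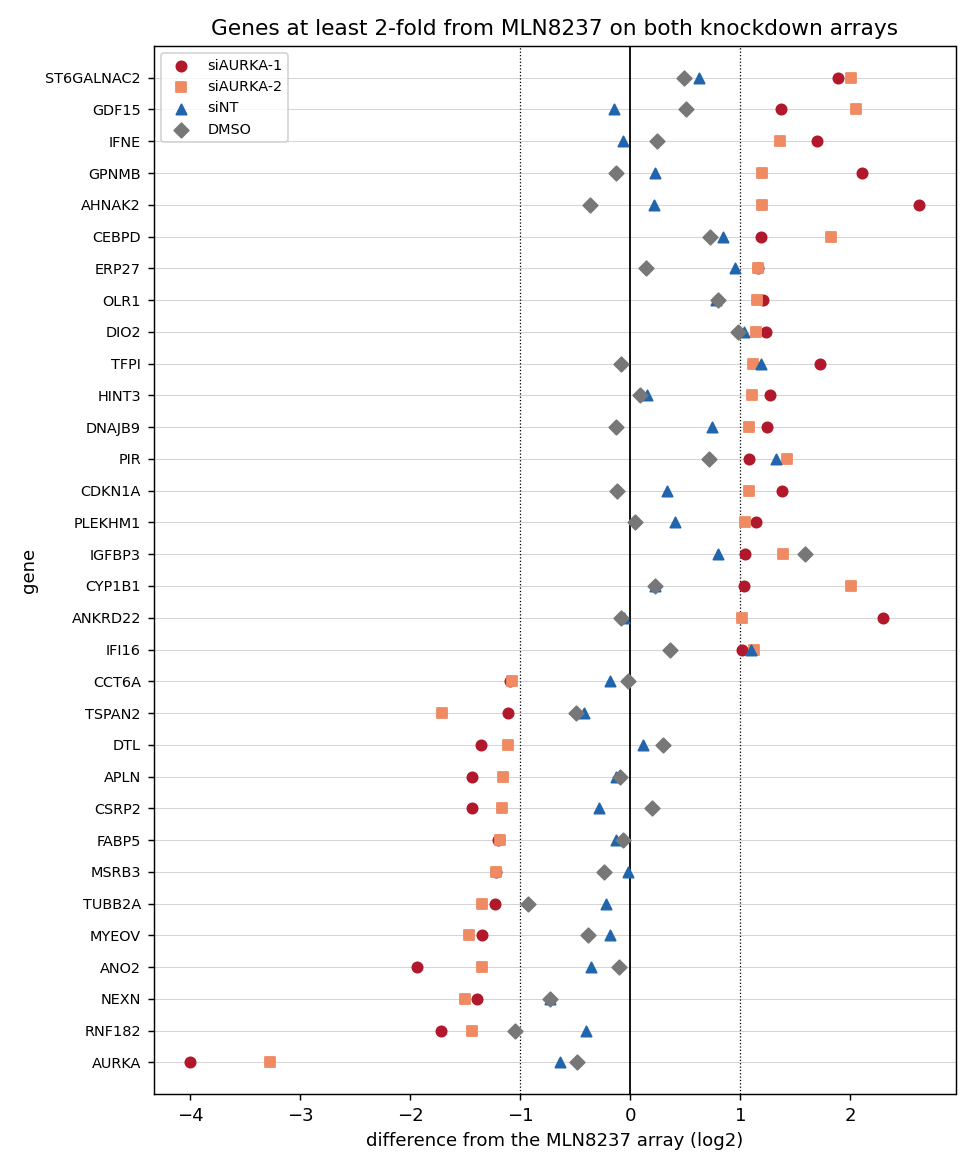
Rows are the 32 genes and the horizontal axis is the log2 difference from the MLN8237 array for siAURKA-1 (circle), siAURKA-2 (square), siNT (triangle) and DMSO (diamond), 1 array each, with dotted lines at 2-fold. The knockdown symbols lie outside the dotted lines in every row; siNT is also outside for TFPI, IFI16, DIO2 and PIR, and DMSO for IGFBP3 and RNF182.

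Among genes where the knockdown arrays stood apart on the high side, ST6GALNAC2 had the largest smaller difference. This sialyltransferase gene, which acts on O-linked glycans, read -0.13 with DMSO, 0.00 with siNT, -0.62 with MLN8237, 1.26 with siAURKA-1 and 1.39 with siAURKA-2. It was lowest with the inhibitor, so its differences of 1.88 and 2.01 from MLN8237 are wider than those from either control. IFNE, encoding interferon epsilon of epithelia, read 0.00, -0.31, -0.24, 1.45 and 1.12 in the same order, with the 3 arrays without knockdown close together. GDF15, a stress cytokine, read 0.00 with DMSO, -0.66 with siNT, -0.51 with MLN8237, 0.86 with siAURKA-1 and 1.55 with siAURKA-2. The siNT and MLN8237 arrays agree within 0.15 for it, and DMSO lay 0.51 above MLN8237.

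CDKN1A encodes p21, a brake on cyclin-dependent kinases, and read -0.45 with DMSO, 0.00 with siNT, -0.33 with MLN8237, 1.05 with siAURKA-1 and 0.75 with siAURKA-2. All 3 arrays without knockdown were below both knockdown arrays, and MLN8237 was within 0.12 of its vehicle. GPNMB, a lysosomal and melanosomal glycoprotein gene, differed from MLN8237 by 2.10 and 1.19, beside 0.22 for siNT and -0.13 for DMSO. AHNAK2, a large scaffold protein gene, gave 2.62 and 1.19, and ANKRD22 gave 2.30 and 1.02. For GPNMB, AHNAK2 and ANKRD22 siAURKA-1 lay well above siAURKA-2. CYP1B1, a cytochrome P450 induced through the aryl hydrocarbon receptor, had the reverse order, at 2.05-fold higher for siAURKA-1 and 4.01-fold for siAURKA-2, and 4 of 5 probe sets shared both directions. HINT3, a histidine triad nucleotide-binding gene (1.27 and 1.10), and PLEKHM1, an adaptor of late endosomes and lysosomes (1.14 and 1.05), completed the group, with siNT at 0.15 and 0.40.

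On the low side, FABP5, an epidermal fatty acid binding protein gene, read 0.06 with DMSO, 0.00 with siNT, 0.13 with MLN8237, -1.07 with siAURKA-1 and -1.05 with siAURKA-2. The apelin gene APLN read 0.03, 0.00, 0.13, -1.31 and -1.03 in the same order. In both genes the 3 arrays without knockdown spanned 0.13 and the knockdown arrays lay far below. MSRB3, a methionine sulfoxide reductase gene, lay at -1.22 from MLN8237 for each siRNA, and its 4 probe sets shared the direction. MYEOV, a gene amplified in some carcinomas, gave -1.35 and -1.46, and ANO2, a calcium-activated chloride channel gene, -1.94 and -1.35. CSRP2, a LIM protein gene, gave -1.44 and -1.17. CCT6A, a subunit of the TRiC chaperonin that folds tubulin and actin, gave -1.10 and -1.08, and the tetraspanin gene TSPAN2 -1.11 and -1.71. For TSPAN2 the controls lay 0.43 (siNT) and 0.50 (DMSO) below MLN8237.

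The stricter demand of 2-fold from all 3 other arrays was met by ST6GALNAC2, IFNE and ANKRD22 on the high side and by AURKA, DTL, FABP5 and APLN on the low side. For ANKRD22 and APLN this held narrowly, with smallest differences of 1.02 and -1.03.

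In 4 genes higher with knockdown the siNT array read much like the knockdown arrays. TFPI, encoding tissue factor pathway inhibitor, read -1.20 with DMSO, -1.11 with MLN8237, 0.08 with siNT, 0.61 for siAURKA-1 and 0.00 for siAURKA-2. The untransfected arrays formed the low group and siNT exceeded siAURKA-2. IFI16, a nuclear sensor of foreign DNA, read -0.66 with DMSO and -1.02 with MLN8237 against 0.07, 0.00 and 0.11 on the 3 transfected arrays (siNT, siAURKA-1, siAURKA-2). DNAJB9, an endoplasmic reticulum co-chaperone gene, read -0.87 and -0.74 against 0.00, 0.50 and 0.34 on the siNT, siAURKA-1 and siAURKA-2 arrays, with 2 of its 3 probe sets in both directions. ERP27, a disulfide isomerase family gene, read -0.80 and -0.95 against 0.00, 0.21 and 0.21. When each treatment was first set against its own control, TFPI gave 0.44 and -0.16, IFI16 0.29 and 0.39, DNAJB9 0.37 and 0.21, and ERP27 0.35 and 0.36, all short of 2-fold. Knockdown and transfection cannot be told apart for these genes in the direct comparison.

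In 6 genes both controls lay nearer to the nearer knockdown array than to MLN8237. In 5 of them the MLN8237 array itself stood apart, while for NEXN, given below, the controls lay between. DIO2, the type 2 iodothyronine deiodinase gene, read -0.06 with DMSO, 0.00 with siNT, -1.04 with MLN8237, 0.20 with siAURKA-1 and 0.11 with siAURKA-2. Its 5 probe sets shared both directions and the 4 arrays without inhibitor spanned 0.26. OLR1, the lectin-like receptor of oxidised LDL, read -0.80 with MLN8237 and between -0.02 and 0.41 elsewhere. CEBPD, a transcription factor gene of acute responses, read -0.84 with MLN8237, -0.12 with DMSO, 0.00 with siNT, 0.34 for siAURKA-1 and 0.98 for siAURKA-2. PIR, encoding the iron-binding protein pirin, read -1.08 with MLN8237 and -0.36 with DMSO, below 0.24, 0.00 and 0.35 on the transfected arrays.

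IGFBP3, whose product binds insulin-like growth factors, read 0.54 with DMSO, -0.24 with siNT, -1.04 with MLN8237, 0.00 with siAURKA-1 and 0.34 with siAURKA-2. The DMSO array was the highest of the 5, so knockdown cells lay between vehicle and inhibitor. NEXN, an actin filament protein gene, was the lower member of this class and read 0.00 on both control arrays, 0.73 with MLN8237, -0.67 with siAURKA-1 and -0.77 with siAURKA-2. Inhibitor and knockdown were on opposite sides of both controls for NEXN, and its 7 probe sets shared the direction.

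RNF182, a ubiquitin ligase gene, and TUBB2A, a beta-tubulin gene, were high with both MLN8237 and siNT. RNF182 read 0.00 with DMSO, 0.64 with siNT, 1.05 with MLN8237, -0.67 with siAURKA-1 and -0.39 with siAURKA-2. TUBB2A read 0.00, 0.71, 0.93, -0.30 and -0.42 in the same order. Both genes had the knockdown arrays lowest, with DMSO nearer to them than to MLN8237.

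DNA replication genes were lower with knockdown than with the inhibitor, to a different extent with each siRNA. Of 43 measured S phase and DNA replication genes, 8 were at least 1.5-fold lower on both knockdown arrays and 0 higher. Of all genes, 0.543% were that much lower on both. At any size 38 of the 43 were lower on both, and 19.7% of all genes were. The median was -0.78 with siAURKA-1, where 25 members were at least 1.5-fold lower (3.66% of all genes were), and -0.35 with siAURKA-2, where 8 were (2.11% of all genes). For comparison, siNT gave a median of 0.00 and DMSO one of 0.27, so the MLN8237 array lay below its vehicle for this list. With each treatment set against its own control the medians were -0.45 and 0.02, and 3 of the 43 were at least 1.5-fold lower with both siRNAs, where 233 of all genes were (1.28%).

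DTL, the receptor of the CUL4 ubiquitin ligase that destroys licensing factors in S phase, read 0.30 with DMSO, 0.12 with siNT, 0.00 with MLN8237, -1.35 with siAURKA-1 and -1.11 with siAURKA-2. MCM2, a subunit of the replicative helicase, read 0.40, 0.00, 0.16, -0.82 and -0.81 in the same order, and its 4 probe sets shared the direction. MCM4, of the same helicase, read 0.34, 0.00, 0.10, -0.87 and -0.85. RRM2, the regulated subunit of ribonucleotide reductase, read 0.22, 0.05, 0.09, -0.79 and -0.76. These 4 genes were the list members with the largest smaller difference, so their place below MLN8237 follows from that choice. Their knockdown arrays agreed within 0.24 of each other and also lay below siNT and DMSO, with DMSO the highest array. How many of all genes do so was not counted. The other members past 1.5-fold on both were MCM7 (-0.91 and -0.79), the loading factor CDC6 (-0.96 and -0.75), the thymidine kinase TK1 (-0.85 and -0.72) and MCM3 (-0.88 and -0.65), named here after their values were seen. MCM2 at -0.97 was just short of 2-fold on the smaller difference.

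Many replication genes are driven by E2F factors, so the 250 bases before the start of transcription were searched for TTTCCCGC, TTTGGCGC, TTTCGCGC and TTTGCCGC on both strands. In RefSeq promoters of GRCh38.p14, 761 of 27305 (2.79%) held a match. Of the 38 S phase list members with a listed promoter, a match was found in 16 (42.1%), and of the 31 mitotic list members 2 did (6.45%). Of the 8 genes lower on both arrays, 7 were found and 3 held a match (42.9%), a share close to that of the whole list. Those 3 are shown with the match in capitals, 5′ to 3′ on the gene's strand, because they belong to the group that was lower with both siRNAs. A match describes the letters only. DTL lies on the plus strand (chr1:212035498-212035747), MCM7 (chr7:100101398-100101647) and MCM3 (chr6:52284743-52284992) on the minus strand.
DTL: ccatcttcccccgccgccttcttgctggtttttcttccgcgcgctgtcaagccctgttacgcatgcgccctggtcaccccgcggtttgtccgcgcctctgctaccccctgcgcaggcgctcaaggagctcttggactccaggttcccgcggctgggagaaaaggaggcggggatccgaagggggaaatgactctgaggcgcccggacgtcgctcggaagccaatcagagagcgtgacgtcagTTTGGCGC
MCM7: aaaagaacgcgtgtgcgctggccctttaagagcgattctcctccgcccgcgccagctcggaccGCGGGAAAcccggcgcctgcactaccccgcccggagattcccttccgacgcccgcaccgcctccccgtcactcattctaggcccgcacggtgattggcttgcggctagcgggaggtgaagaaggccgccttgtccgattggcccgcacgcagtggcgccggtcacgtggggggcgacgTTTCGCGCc
MCM3: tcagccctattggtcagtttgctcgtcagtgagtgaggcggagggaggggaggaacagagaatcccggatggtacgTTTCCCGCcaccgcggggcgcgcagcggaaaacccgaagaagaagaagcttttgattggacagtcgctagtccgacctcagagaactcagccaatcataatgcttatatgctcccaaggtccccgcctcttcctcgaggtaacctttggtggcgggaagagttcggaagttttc
The DTL match starts 8 bases before the transcription start, and MCM7 holds a match 9 and another 187 bases before it. In MCM3 it starts 174 bases before.

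In the direct comparison with MLN8237, mitotic genes showed a different pattern. Of 35 G2/M genes, 0 were at least 1.5-fold apart from MLN8237 on both knockdown arrays. At any size 28 were lower on both (19.7% of all genes were). The median was -0.64 with siAURKA-1, where 18 were at least 1.5-fold lower (3.66% of all genes). It was -0.15 with siAURKA-2, where 0 were (2.11%). The controls gave -0.18 (siNT) and -0.20 (DMSO), so the siAURKA-2 median was no further below MLN8237 than those of the controls. With each treatment set against its own control the mitotic medians were -0.65 and -0.09. On that baseline 2 of the 35 were at least 1.5-fold lower with both siRNAs (1.28% of all genes were). The S phase medians on that baseline were higher, at -0.45 and 0.02, so the contrast between the lists depends on the baseline. CENPE, the kinetochore motor, read 0.00 with DMSO, -0.02 with siNT, 0.58 with MLN8237, -0.82 with siAURKA-1 and 0.00 with siAURKA-2. The inhibitor array was highest, the siAURKA-1 array lowest and the other 3 level. NCAPG, a condensin subunit, gave -1.41 and -0.32. NCAPD3, of the second condensin complex and outside the list, was lower with both at -0.96 and -1.23.

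**Figure D3:**
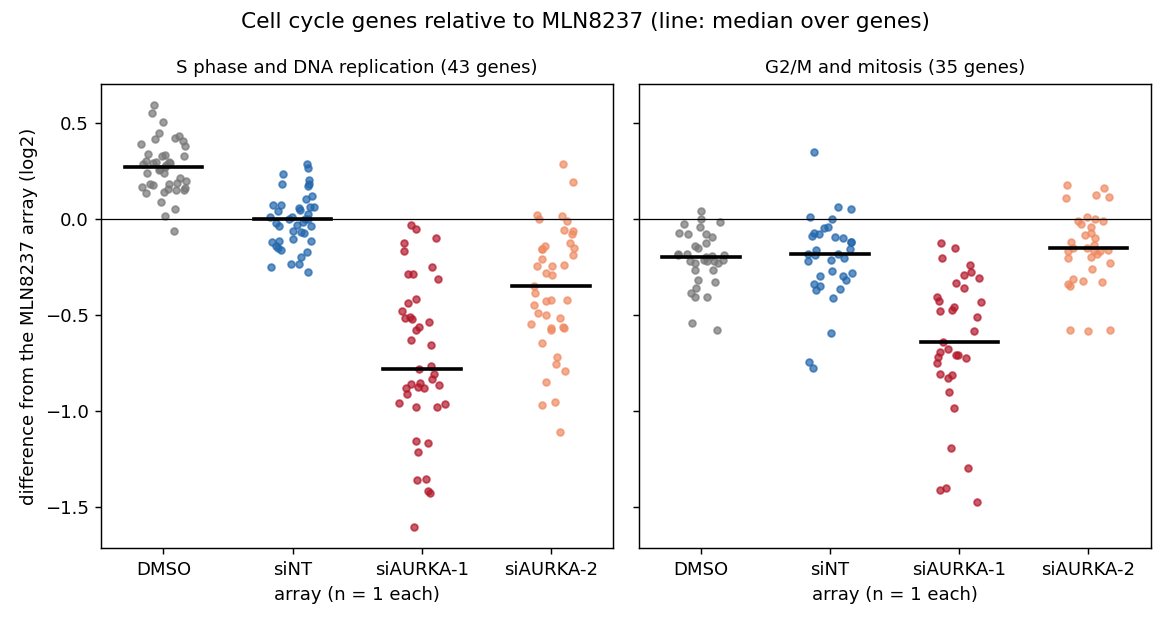
Points are genes of the S phase list (left, 43 genes) and the mitotic list (right, 35 genes), plotted as log2 difference from the MLN8237 array for each other array (n = 1 each), with a line at the median over genes. Replication genes have medians of 0.27, 0.00, -0.78 and -0.35 from DMSO to siAURKA-2, and mitotic genes -0.20, -0.18, -0.64 and -0.15.

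Replication-dependent histone genes did not follow. Of 33, 0 were 1.5-fold apart on both arrays, with medians of -0.05 and 0.04. H4C3 gave -0.57 and -0.54, while H2BC5 gave -0.23 (siAURKA-1) and 1.66 (siAURKA-2). Tubulin genes were lower mainly with siAURKA-1. Their 19 members had medians of -0.48 and -0.12, beside -0.02 for siNT and -0.03 for DMSO, and siAURKA-1 had 7 members at least 1.5-fold lower (3.66% of all genes were) against 2 for siAURKA-2 (2.11%). The DMSO array also had 2 such members (0.367% of all genes), TUBA1A and TUBB2A. The 2 lower on both arrays were TUBB2A (-1.23 and -1.35) and TUBA4A, the latter at 50.1% and 45.8% of the MLN8237 signal and just short of 2-fold.

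Targets of p53 went different ways. Of 22 measured, 2 were at least 1.5-fold higher on both knockdown arrays, GDF15 and CDKN1A, and 1 was lower, the repair gene DDB2. DDB2 read 0.43 with DMSO, 0.00 with siNT, 0.08 with MLN8237, -0.71 with siAURKA-1 and -0.77 with siAURKA-2. The list medians were -0.03 and 0.14. The siAURKA-1 array had 2 members higher and 3 lower by 1.5-fold, and the siAURKA-2 array 6 and 2. Of all 18239 genes, 548 were that much higher and 667 lower with siAURKA-1, and 405 and 384 with siAURKA-2. In the BCL2 family, 0 of 18 members were 1.5-fold apart on both arrays. BIK, a pro-apoptotic member, gave -0.23 and 1.23, and BNIP3L, a mitophagy receptor gene, 0.98 and 0.03 with 3 of 6 probe sets in both directions.

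Interferon response and double-stranded RNA sensing genes were examined because transfected RNA can engage these sensors. Of 34 measured, 3 were at least 1.5-fold higher on both knockdown arrays than with MLN8237 and 0 lower. Medians were 0.06 (siAURKA-1) and 0.15 (siAURKA-2), against 0.06 with siNT and 0.01 with DMSO. Besides IFNE these were IFIT2, an interferon-induced inhibitor of translation, and IFIH1, the sensor MDA5. IFIT2 read -0.10 with DMSO, 0.00 with siNT, -0.53 with MLN8237, 0.14 with siAURKA-1 and 1.42 with siAURKA-2, so only the siAURKA-2 array lay far above the controls. IFIH1 read -0.35 and -0.40 with DMSO and MLN8237, and 0.00, 0.20 and 0.28 on the transfected arrays. On the siAURKA-2 array 9 members were at least 1.5-fold above MLN8237 (2.22% of all genes were) and on the siAURKA-1 array 4 (548 of all genes). Of 14 genes for small RNA processing, 0 were 1.5-fold apart on both. AGO2, the slicing Argonaute, gave 0.62 and 0.11, and PRKRA, a partner of Dicer, gave -0.65 and -0.04 with 1 of 2 probe sets in these directions.

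Among inflammatory genes the siRNAs often lay on different sides of MLN8237. Of 26 measured, 14 had opposite signs, 7 of them by at least 1.5-fold each way, while 5 were higher and 2 lower on both at any size. Of all 18239 genes, 4489 had opposite signs, 58 of them (0.318%) by 1.5-fold each way. At any size 35.0% of all genes were higher and 19.7% lower on both. Of these NF-kB and cytokine genes 0 were 1.5-fold apart on both arrays in the same direction, while siAURKA-1 had 8 members lower and siAURKA-2 had 11 members higher by that much. Over all genes these shares were 3.66% and 2.22%. IL1A, encoding interleukin 1 alpha, gave -2.39 and 0.80. CXCL1, a neutrophil chemokine gene, was lower with both at -1.58 and -0.31. DMSO lay at least 1.5-fold below MLN8237 for 7 members (0.367% of all genes) and siNT for 1 (0.641%). Immediate early genes had 0 of 24 members apart on both arrays. EGR1 read 0.40 with DMSO, 0.35 with MLN8237, -1.07 with siNT, 0.00 for siAURKA-1 and -0.51 for siAURKA-2, with siNT the lowest. FOSL1, a FOS family gene, gave -1.36 and -0.13, with 4 of 6 probe sets in these directions.

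In 6 genes the knockdown arrays lay at least 2-fold from MLN8237 in opposite directions. CD24, a surface glycoprotein gene, read -0.95 with DMSO, 0.71 with siNT, 0.00 with MLN8237, 1.30 with siAURKA-1 and -1.74 with siAURKA-2. It was the 1 gene of the 6 with siAURKA-1 on the high side. SUN3, a nuclear envelope protein gene, gave -1.39 and 1.54. PTX3, a soluble pattern recognition gene, gave -1.29 and 1.54. CXCL2 gave -1.28 and 1.38, and LCP1, an actin bundling gene, -1.78 and 1.15. HSD11B1, which regenerates cortisol, gave -1.16 and 1.12, and DMSO lay as low as siAURKA-1 for it, at -1.25 from MLN8237. INHBA, encoding an activin subunit (40.3% and 199.8% of the MLN8237 signal), and KHDC1L (-1.02 and 0.98) were next and short of 2-fold on the siAURKA-2 array. With 1 array per siRNA, reagent and array cannot be told apart.

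Epithelial genes differed from MLN8237 in both directions. Of 29 keratinocyte differentiation genes, 2 were at least 1.5-fold higher on both and 0 lower (0.603% and 0.543% of all genes were). The siAURKA-1 array had 6 higher in all, where 548 of all 18239 genes were. The siAURKA-2 array had 2 higher and 1 lower (2.22% and 2.11% of all genes were). S100A9, a calprotectin subunit, read -0.53 with DMSO, 0.06 with siNT, -0.92 with MLN8237, 1.21 with siAURKA-1 and 0.00 with siAURKA-2. For it siAURKA-2 did not exceed siNT. ELF3, an epithelial transcription factor gene, read 0.00, -0.48, -0.40, 0.65 and 0.28 in the same order and was highest on both knockdown arrays. Of 16 basal squamous genes 1 was higher, the desmosomal cadherin DSG3 (0.70 and 0.76), with siNT at 0.87. Beside the same all-gene figures, the siAURKA-1 array had 4 basal members at least 1.5-fold higher, and the siAURKA-2 array 1 higher and 2 lower. Those 2, named after their values were seen, were the basal keratin KRT5, at 0.57 (siAURKA-1) and -1.56 (siAURKA-2), and the integrin ITGA6, at 0.56 and -0.66. Medians of the basal list were 0.28 with siAURKA-1 and 0.02 with siAURKA-2.

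Of 24 mesenchymal genes, 2 were at least 1.5-fold lower on both and 0 higher, with medians of 0.01 and 0.00. Each knockdown array had 4 members lower, and siAURKA-1 had 4 higher against 1 for siAURKA-2. Of all 18239 genes, 667 were that much lower and 548 higher with siAURKA-1, and 384 and 405 with siAURKA-2. CDH2, or N-cadherin, read 0.00 with DMSO, 0.47 with siNT, 0.66 with MLN8237, -0.19 with siAURKA-1 and -0.18 with siAURKA-2. THBS1, a matrix glycoprotein gene, gave -1.21 and -0.86, with 4 of 5 probe sets in these directions. VIM, or vimentin, was the most extreme member of the list at -3.80 and -0.14, with DMSO at -1.83. The matrix genes SPARC (1.34 and -0.27) and TNC (0.96 and -0.76) were higher with siAURKA-1 and lower with siAURKA-2, and these 3 genes were named after their values were seen. Genes responsive to YAP and TGF-beta had 0 of 24 members apart on both. ANKRD1 gave -3.68 and -0.16, and NT5E, encoding CD73, -1.77 and 0.09. Of 24 protease and inhibitor genes 1 was lower on both, ADAMTS1 (-0.86 and -0.81). For it siNT lay 0.37 above MLN8237, while DMSO lay at -0.62 from MLN8237, nearer to the knockdown arrays. In the IGF list of 12 genes 2 were higher on both, IGFBP3 and the mannose 6-phosphate receptor gene IGF2R, which read 0.00 with DMSO, -0.21 with siNT, -0.19 with MLN8237, 0.53 with siAURKA-1 and 0.71 with siAURKA-2. IGF2R separated the knockdown arrays from all others.

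Stress and metabolic lists had at most 2 members apart on both arrays. Of 30 genes of the unfolded protein response and the integrated stress response, DNAJB9 and DDIT4, an inhibitor of mTORC1, were higher. The medians were -0.14 and 0.14. On the siAURKA-1 array 7 members were at least 1.5-fold lower (3.66% of all genes were). On the siAURKA-2 array 6 were higher by that much (2.22%). DDIT4 read -0.28 with DMSO, 0.55 with siNT, -0.82 with MLN8237, 0.00 with siAURKA-1 and 0.39 with siAURKA-2, with siNT the highest. INSIG1, which retains the sterol sensor SCAP in the endoplasmic reticulum, was the 1 of 27 cholesterol and fatty acid genes, at 0.90 and 0.89. It read -1.11 with DMSO, so inhibitor cells lay 0.56 above vehicle and knockdown cells higher again, with siNT at 0.55 above MLN8237. Against own controls INSIG1 gave -0.21 and -0.22, the opposite direction. ABCC3, an organic anion exporter gene, was the 1 of 19 NRF2 targets, at 0.91 and 0.96.

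UTP20, of the small subunit processome, was the 1 of 27 ribosome biogenesis genes lower on both (-0.93 and -0.62). At any size 21 of the 27 were lower on both (19.7% of all genes were), and medians were -0.13 and -0.25. HSP90AA1, the inducible HSP90 gene, was the 1 of 16 heat shock genes, at -0.62 and -0.65. APLN was the 1 of 22 hypoxia and glycolysis genes. Of 22 ribosomal protein genes 0 were 1.5-fold apart on both, RPL13 giving 0.35 and 0.20 and RPS14 -0.56 and -0.49. The 24 lists hold 612 entries, 37 without a value, and were chosen with earlier results of these data known. Of these entries 32 were at least 1.5-fold apart on both arrays, and the S phase list held 8 of them. Of all genes, 0.603% were higher and 0.543% lower by that much on both.

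**Figure D4:**
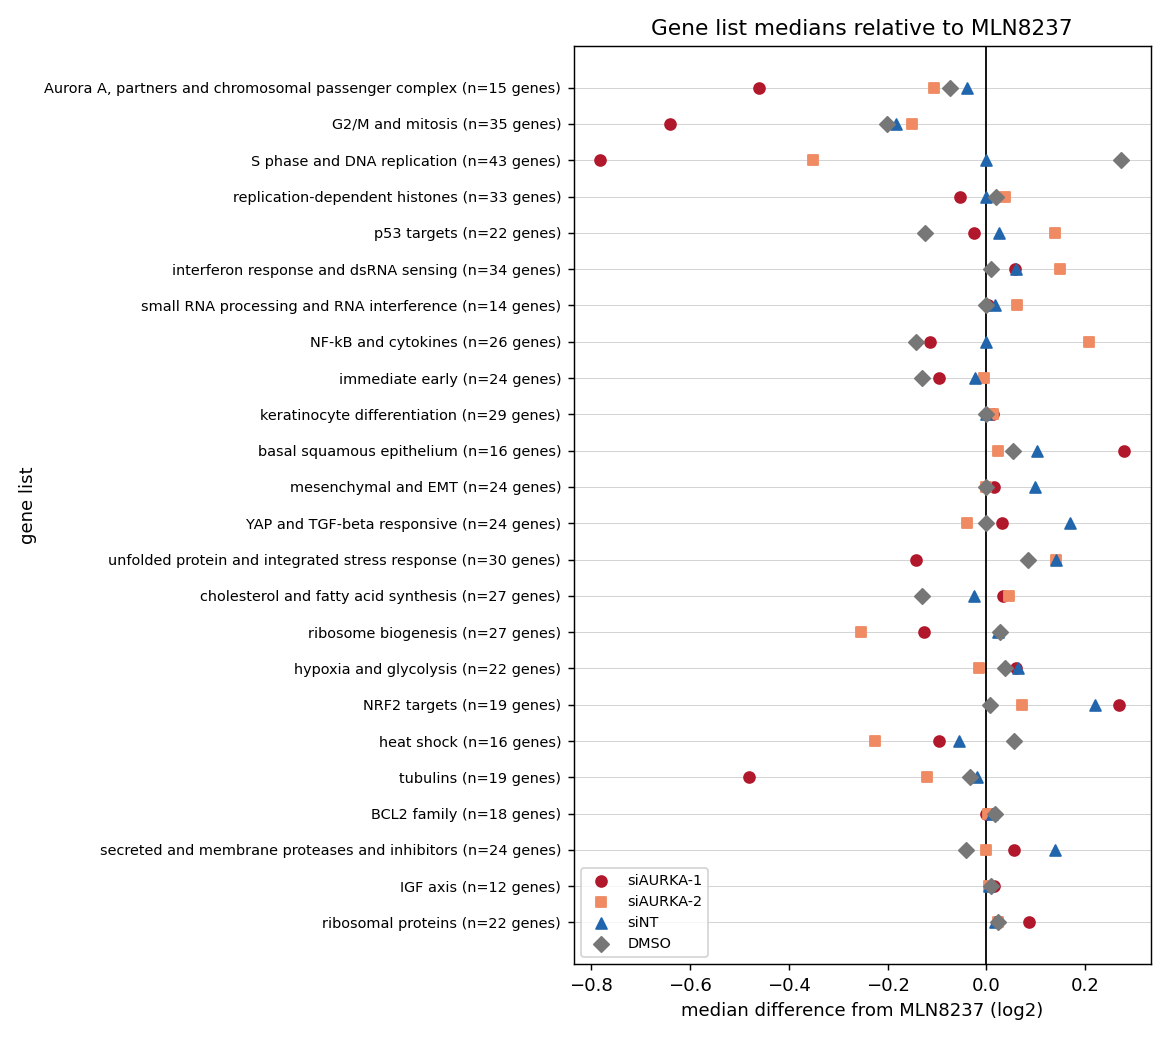
Rows are the 24 gene lists and the horizontal axis is the median over measured members of the log2 difference from the MLN8237 array, for siAURKA-1 (circle), siAURKA-2 (square), siNT (triangle) and DMSO (diamond), 1 array each. S phase genes have both knockdown medians below both controls, at -0.78 and -0.35. The Aurora, tubulin, ribosome biogenesis, heat shock and BCL2 lists have this order too, with medians nearer to the controls. Mitotic genes have only the siAURKA-1 median below both controls, at -0.64. NF-kB genes have siAURKA-2 at 0.21 and siAURKA-1 at -0.11.

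The 10 fibroblast, 9 leukocyte and 10 endothelial markers with values had 0 members at least 1.5-fold apart on both knockdown arrays, and their medians lay between 0.00 and 0.01 for both siRNAs. Of 6 squamous markers, DSG3 was the 1 higher on both, and KRT5 was at least 1.5-fold lower with siAURKA-2. The squamous medians were 0.45 for siAURKA-1 and -0.17 for siAURKA-2, beside 0.16 for siNT and 0.15 for DMSO.

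The 2-fold limit passes through closely spaced genes. Just inside it on the high side were CYP1B1, ANKRD22 and IFI16 (smaller differences 1.03, 1.02 and 1.02), and just outside were the inflammatory caspase gene CASP4 (199.5% of the MLN8237 signal on the nearer array), OTUD1, a deubiquitinase gene (0.96), and FBXO32, a muscle atrophy ubiquitin ligase gene (0.92). Relative to MLN8237, siNT lay at 0.76 for CASP4, 0.14 for OTUD1 and 0.82 for FBXO32, and DMSO at 0.15, 0.99 and 0.15. On the low side CCT6A, DTL and TSPAN2 were just inside (-1.08, -1.11 and -1.11). Just outside were TUBA4A (50.1%), BCAT1, the cytosolic branched-chain aminotransferase (-0.99), and SNAPC1 of the snRNA activating complex (-0.98). ANKRD2 (-0.97), MCM2 (-0.97) and the imprinted gene MEST (-0.96) followed. SNAPC1 read 0.98 with MLN8237 and between -0.30 and 0.00 on the other arrays, so its difference came with a high inhibitor array. BCAT1 read 0.21 with DMSO, 0.67 with siNT, 0.00 with MLN8237, -1.19 with siAURKA-1 and -0.99 with siAURKA-2.

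Setting each treatment against its own control, siNT for the siRNAs and DMSO for MLN8237, gave 23 higher (0.126%) and 53 lower genes (0.291%), and 9 of the 19 and 10 of the 13 were among them. The count of lower genes thus depends on which arrays form the baseline. Genes short of 2-fold on this baseline included some whose controls both lay nearer to MLN8237 than to the nearer knockdown array. Their smaller differences were 0.61 for AHNAK2, 0.63 for CDKN1A, 0.685 for PLEKHM1, 0.84 for GPNMB and 0.99 for ANKRD22. On the low side CSRP2 gave -0.69, CCT6A -0.92 and DTL -0.93.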

How the data were processed

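Gene expression was measured in GFP-SAS cells on 5 arrays, 1 per treatment. Per the labels' protocols, ISOGEN served for RNA extraction and 10 ng of RNA was labelled for the Affymetrix GeneAtlas system. The submitters' processing notes name RMA. The sources used here do not give the software version, log base or centring step, and the deposited values are taken as log2 from their range. In all 49386 probe sets the median over the 5 arrays is 0, which shows a centring of each probe set in the deposited table, and no filter on low signal was possible. The MLN8237 array is at exactly 0 in 43.6% of probe sets.

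Probe sets were named from the platform annotation. In all 45253 named 1 gene, 1327 several, 2713 none and 93 were controls. A gene's value is the median of its probe sets, which gave 18239 genes, and 6417 had a single probe set. Of the 32 counted, 20 had several probe sets and 2 of those had a probe set off the direction. A 2-fold difference was required on both knockdown arrays, and list members were counted at 1.5-fold. The 24 lists hold 612 entries, 37 without a value. Members and lists were chosen with earlier results of these data known. Named genes are the Aurora list, the 20 highest and 20 lowest by the smaller difference, up to 4 per direction of each list at 1.5-fold (or the 2 with the largest mean), 8 in opposite directions, 3 on each side of the limit, and up to 10 per direction apart from all 3 other arrays. With 1 array per group there is no test, and the number of arrays limits precision. Scripts ran in Python 3.11.15 with pandas 2.3.3 and were tested on simulated data. Alternatives were other thresholds, array centring, other probe set summaries, probe set agreement and own-control baselines.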

Additional observations from a re-analysis of the deposited data

Results flagged for a closer look

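Each of these 6 genes had the siRNA arrays on opposite sides of the MLN8237 array by at least 2-fold, and the difference between the siRNAs was not tested. The values are siAURKA-1 minus siAURKA-2 on the log2 scale. CD24 gave 3.04, the 1 gene of the 6 that was higher with siAURKA-1. SUN3 gave -2.94 and LCP1 -2.93. PTX3 gave -2.83, CXCL2 -2.66 and HSD11B1 -2.28.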

How the results depend on the processing

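The counts at 2-fold were recomputed under other settings. At 1.5-fold, 110 genes were higher and 99 lower with both siRNAs, 548 and 667 with siAURKA-1, 405 and 384 with siAURKA-2, 58 in opposite directions and 25 on both controls. At 3-fold these were 1 and 1, 18 and 28, 7 and 14, 0 and 0. With the probe set of largest standard deviation they were 45 and 34, 331 and 404, 196 and 237, 15 and 7. That choice favours extreme readings by construction. With each treatment against its own control, 53 genes were lower with both (siAURKA-1 301, siAURKA-2 181) and 2 were in opposite directions; the cause was not tested. Averaging probe sets and requiring probe sets to agree left these counts within 1.5 times. Centring arrays on their median changed no count, because the median over genes was already 0 on the knockdown and control arrays. That setting is therefore no check. Among the 32 genes, 30 stayed past 2-fold with the mean of probe sets and 31 with the most variable probe set. Against own controls 19 did, and TFPI turned to -0.16. No paired analysis was possible because each group has 1 array and the labels give no replicate numbers.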
